A study of Homo sapiens with 12 samples.

Results

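The effect of the MEK inhibitor trametinib on gene expression was compared between KP4 and MiaPaca2, a pair of established human pancreatic ductal adenocarcinoma cell lines. The quantity of interest was the difference of responses, that is, the log2 change from DMSO to trametinib in KP4 minus the same change in MiaPaca2, taken over all 12 libraries of the series. Of 16133 genes tested, 10581 were well expressed in both lines, meaning a mean of 5 CPM (read counts scaled to library size) or more in at least 1 group of each line. The response differed for 4923 of these 10581 genes (46.5%) and for 5828 of all 16133 (36.1%). A further condition picked 381 well-expressed genes (3.6%) that moved in opposite directions: they passed the test in KP4, in MiaPaca2 and in the difference, with opposite signs in the lines.

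The 4 groups were KP4 in DMSO, KP4 in 100 nM trametinib, MiaPaca2 in DMSO and MiaPaca2 in 100 nM trametinib, with 3 libraries each after 48 h. DMSO is the solvent control. The design asks how transcription adapts when the MAPK pathway is blocked in this cancer. The labels do not state that the 3 libraries of a group are separate cultures. The p-values therefore reflect the scatter of these libraries, part or all of which could be technical. Each group is also a single established line, and a difference between KP4 and MiaPaca2 is a difference between these 2 lines only.

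The MAPK pathway signals through the kinases RAF, MEK and ERK to transcription factors of the ETS and AP-1 families. ERK output includes its own inhibitors, such as the Sprouty proteins and the dual-specificity phosphatases, together with immediate early genes, growth factors and cell cycle genes. Immediate early genes also answer to stress kinases, cAMP and calcium, so their level reports several inputs. Pancreatic cancer cells under MEK inhibition are known to alter lysosomal, autophagy, iron-handling and interferon-related genes.

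The libraries labelled MiaPaca2 stood apart in a way that bears on every result below. Of 6140 genes at 30 CPM or more in both KP4 groups, none fell below 11.8% of the KP4 level under the same treatment in any library labelled MiaPaca2, and the count under 10% was 0 in all 6 of them. The lowest ratios were 11.8%, 14.6% and 12.2% in the DMSO libraries and 23.6%, 23.7% and 24.2% in the trametinib libraries. Counting up to the tenth lowest gene, the ratios were 19.1%, 27.3% and 20.9% with DMSO and 42.6%, 38.7% and 40.1% with trametinib. MAN1A1, a mannosidase of the Golgi, had the lowest ratio in the 3 DMSO libraries, with 98.1 CPM in KP4 DMSO against 12.6 CPM in MiaPaca2 DMSO; it is itself among the genes that fell in KP4 and rose in MiaPaca2 (-0.35 and 1.29). The reverse comparison looked different. Of 6034 genes at 30 CPM or more in both MiaPaca2 groups, each KP4 library held 57 to 65 under 10% and 21 to 29 under 1% of the MiaPaca2 level. SERPINB1, a protease inhibitor, had 0 counts in all 6 KP4 libraries against 40.1 CPM in MiaPaca2 DMSO. DDIT4L, an inhibitor of mTOR signalling, averaged 238 CPM in MiaPaca2 DMSO and 0 in KP4 DMSO. Every transcript abundant in KP4 was thus present in the libraries labelled MiaPaca2, at a higher minimum with trametinib than with DMSO, while KP4 lacked many MiaPaca2 transcripts. A contribution of RNA of KP4 type to the MiaPaca2 libraries and true expression of these genes in MiaPaca2 cannot be told apart from the counts.

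**Figure D1:**
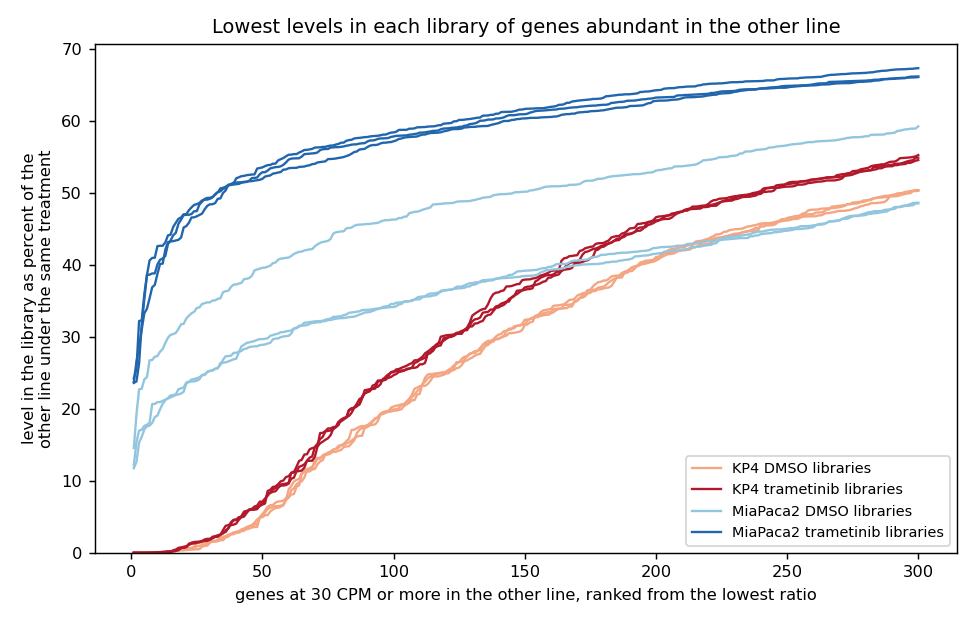
Each line is 1 of the 12 libraries, and the y axis gives a gene's level as a percentage of its mean level in the other line under the same treatment, for the lowest genes among those at 30 CPM or more in both groups of the other line, ranked along the x axis. The KP4 libraries start at 0%, whereas the MiaPaca2 DMSO libraries start at 11.8% to 14.6% and the MiaPaca2 trametinib libraries at 23.6% to 24.2%.

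Results were therefore recomputed after subtracting from each MiaPaca2 library the mean KP4 level of the same treatment times that library's lowest ratio, or times the tenth lowest ratio. These alternatives were added after the data had been seen, and they use the KP4 libraries on both sides of the comparison, so they are not independent of the KP4 response. Replicate 2 of MiaPaca2 DMSO also stood apart from its group. Its counts differed from the other members by a chi-square of 14.5 and 13.3 per degree of freedom, against 7.70 between replicates 1 and 3 and 2.02 to 2.89 in the other groups. Total counts ran from 20293688 to 28018129 per library. Epithelial markers were uneven: EPCAM averaged under 1 CPM in all 4 groups and KRT7 at most 2.49 CPM, while other keratins were abundant. Scaled over all genes with a count, KRT8, KRT18 and KRT19 averaged 873, 760 and 177 CPM in MiaPaca2 DMSO. In KP4 DMSO they averaged 52.2, 184 and 3.26 CPM. The mesenchymal marker VIM averaged 3085 to 6061 CPM. Summed epithelial markers, scaled over all genes with a count, reached 930 to 973 CPM in KP4 DMSO, 840.5 to 854 in KP4 trametinib, 2584 to 2964 in MiaPaca2 DMSO and 1671 to 1699 in MiaPaca2 trametinib.

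Across the well-expressed genes, most differences were of size rather than of direction. In 2034 genes both lines moved the same way and MiaPaca2 moved further, and in 351 KP4 moved further. Another 1630 genes passed the test in MiaPaca2 alone and 488 in KP4 alone, while 39 differed without passing in either line. The response was higher in KP4 for 2337 genes (22.1%) and lower for 2586 (24.4%). The direction of this split depended on the processing. It was 2689 higher and 1918 lower without replicate 1 of KP4 trametinib, 2784 and 2245 with RLE size factors, 2772 and 2257 with DESeq2, 2765 and 2415 with a stricter filter, and 2815 and 2253 or 2850 and 2373 with the KP4 profile subtracted as above. In KP4 6280 genes changed (59.4%; 47.2% of all genes tested), 2896 upward (27.4%) and 3384 downward (32%). In MiaPaca2 7855 changed (74.2%; 63.6% of all genes tested), 3824 upward (36.1%) and 4031 downward (38.1%). The median response of well-expressed genes was -0.03 on the log2 scale in KP4 and -0.01 in MiaPaca2, with a median difference of -0.02. The responses of the lines, which share no library, had a Pearson r of 0.78 and a Spearman rho of 0.72 over the 10581 genes; this is a description across genes, which are not independent replicates.

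**Figure D2:**
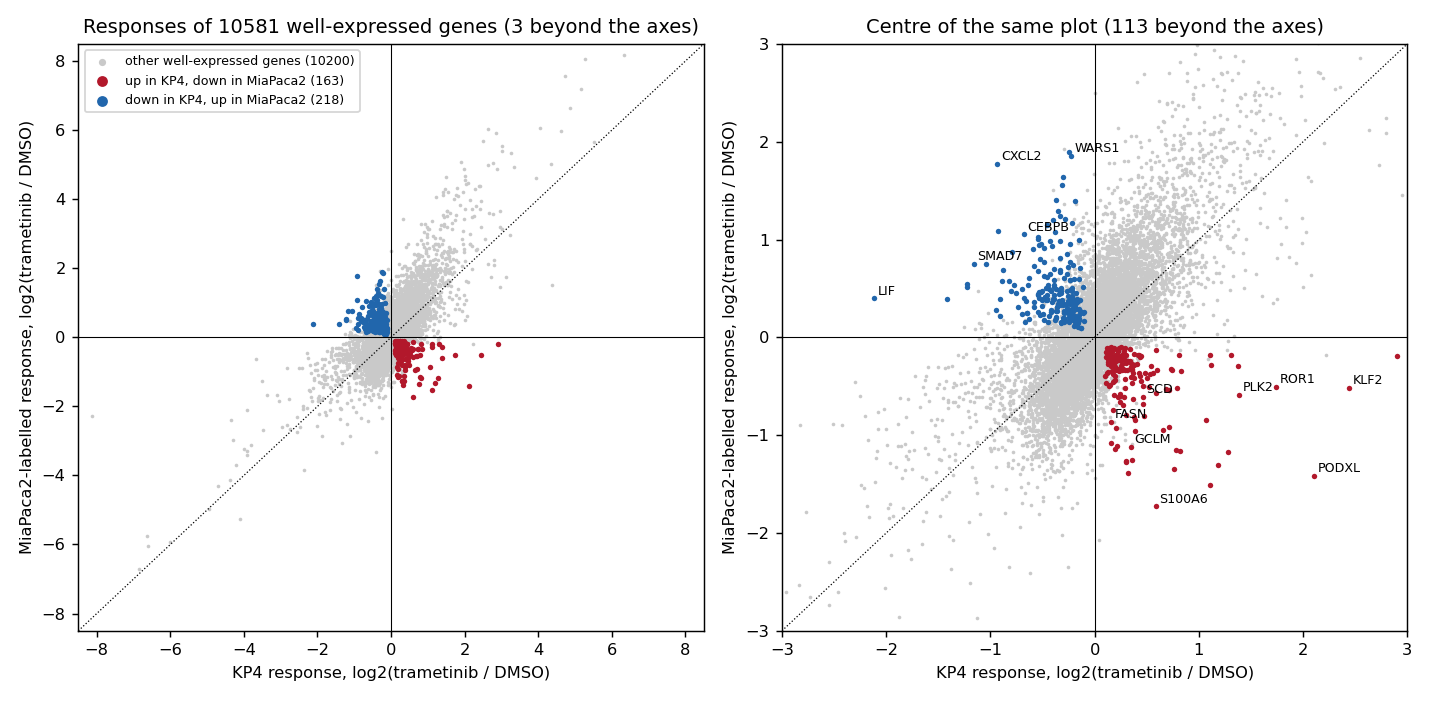
Each point is 1 of 10581 well-expressed genes, with the log2 change from DMSO to trametinib in KP4 on the x axis and in the libraries labelled MiaPaca2 on the y axis; the dotted line marks equal responses and the right panel enlarges the centre. Most genes lie in the quadrants where both lines moved the same way, and the coloured points are the 163 genes that rose in KP4 and fell in MiaPaca2 and the 218 that did the reverse.

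The opposite movers were small in number and mostly small in size. In 163 genes (1.54%) the level rose in KP4 and fell in MiaPaca2, with median log2 changes of 0.29 and -0.33. In 218 genes (2.06%) it fell in KP4 and rose in MiaPaca2, with medians of -0.33 and 0.38. Which direction held more genes depended on the scaling, since size factors of the RLE kind gave 212 that rose and 172 that fell in KP4. Both moves reached 1.5-fold in 21 of the 381 genes, 11 that rose in KP4 and 10 that fell, and 2-fold in 4 genes, PODXL, ALDH1A3, AIFM2 and PHLDA3, all of which rose in KP4. In 336 of the 381 the trametinib libraries did not overlap the DMSO libraries in either line, 148 that rose and 188 that fell in KP4. This follows largely from the selection, since each gene had to pass the test in both lines on these same libraries. Separation within a single line was found, over all well-expressed genes, in 33.4% (trametinib higher) and 39.6% (lower) in KP4. In MiaPaca2 it was found in 35.5% and 37.6%. These single-line shares are not a match for separation in both lines. Protein-coding genes made up 373 of the 381. At the edge of the level condition, CXCL2 (5.15 CPM in the lower line), ARAP2 (5.16) and FBXL16 (5.38) were just inside, and ADAMTSL1 (4.89), CFAP20DC (4.91) and PPFIBP2 (4.96) just outside.

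Several of these counts moved with the libraries used. Without replicate 2 of MiaPaca2 DMSO, 575 genes moved in opposite directions, of which 358 fell in KP4, and 369 of the 381 kept the call. Without replicate 1 of KP4 trametinib, 328 did, of which 134 fell in KP4. With the KP4 profile subtracted at the lowest ratio the count was 388, with 304 of the 381 among them, and with the tenth lowest ratio it was 410, with 252 among them. The signs of both responses stayed the same for 381 and 377 of the 381 genes. Kept signs are a limited check, since only MiaPaca2 libraries were altered and the KP4 sign was largely fixed in advance. The subtraction also moved the MiaPaca2 response itself, further from KP4 for LIF (0.40 to 1.03 and 1.89) and nearer for PODXL (-1.41 to -1.31 and -1.14). Of the genes described individually, ARAP2, TYRO3, NRP1, NR4A1, CDKN1A, RPLP1, SLC25A28, FASN, PCDH7, QARS1 and ZFP36L1 lost the call with both ratios. TNC, CHGB, SCD, MAN1A1, ACLY, CD63, SEMA7A, ROR2 and H2BC12 lost it with the tenth lowest ratio. A lost call need not come from the MiaPaca2 response, although the subtraction acts on that response directly. For CDKN1A, FASN, TYRO3, QARS1 and SLC25A28 the MiaPaca2 response and the difference still passed with both ratios. Their KP4 response no longer did. The KP4 counts were not altered, yet 6741 and 5885 of all genes tested passed in KP4 in these refits, against 7617 as reported. The MiaPaca2 trametinib mean lay past the KP4 trametinib mean, in the direction in which MiaPaca2 had moved, for 178 of the 381 genes, 67 of the 163 and 111 of the 218.

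Among genes that rose in KP4 and fell in MiaPaca2, the sialomucin gene PODXL (podocalyxin; ENSG00000128567, chr7:131500262-131558217 in GRCh38) had the largest opposite moves. It read 8.32, 9.40 and 7.59 CPM in the KP4 DMSO libraries and 37.5, 32.8 and 38.7 CPM with trametinib. In MiaPaca2 it read 631, 528 and 629 CPM with DMSO and 221, 222 and 229 CPM with trametinib. The groups did not overlap in either line, and MiaPaca2 remained above KP4 throughout. PODXL rose 4.32-fold in KP4 (log2 2.11 ± 0.10, SE) and fell 2.66-fold in MiaPaca2, a difference of 3.52 ± 0.12 (edgeR adjusted p = 1.62e-12). ALDH1A3 (ENSG00000184254, chr15:100877714-100916626), an aldehyde dehydrogenase that makes retinoic acid, read 19.3, 19.7 and 19.7 CPM in KP4 DMSO and 44.4, 43.8 and 45.4 CPM with trametinib. Its MiaPaca2 values were 144, 120.2 and 141 CPM with DMSO and 52.3, 57.7 and 53.8 CPM with trametinib. Under trametinib the lines therefore stood closer together, and the difference of responses was 2.50 ± 0.09 (edgeR adjusted p = 1.01e-16).

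The other genes of this kind included membrane and adhesion proteins. ITGB4, the beta 4 integrin of hemidesmosomes, changed by 0.76 in KP4 and -1.34 in MiaPaca2 on the log2 scale. TNS2, a tensin that links integrins to actin, changed by 0.82 and -1.17, and PTPRF, a receptor-type tyrosine phosphatase, by 0.79 and -1.15. S100A6, a calcium-binding protein, read 32.5, 28.5 and 29.2 CPM in KP4 DMSO, 46.3, 42.7 and 46.5 CPM in KP4 trametinib, 494, 365 and 515 CPM in MiaPaca2 DMSO and 134, 143 and 137 CPM in MiaPaca2 trametinib. It rose by 0.59 in KP4 and fell by 1.73 in MiaPaca2 on the log2 scale. PLK2, a polo-like kinase, changed by 1.39 and -0.58, and PHLDA3, an inhibitor of AKT signalling, by 1.11 and -1.51. ADCY7 (an adenylate cyclase; 0.71 and -0.92), FBXL16 (an F-box protein; 0.65 and -0.94) and GABRD (a GABA receptor subunit; 1.07 and -0.85) completed the 12 largest together with AIFM2. In all of these 12 but PHLDA3 the mean of MiaPaca2 stayed above that of KP4 under trametinib, so the lines drew closer. PHLDA3 crossed over, at 4.35 to 4.49 CPM in MiaPaca2 against 5.94 to 6.36 CPM in KP4.

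Among genes that fell in KP4 and rose in MiaPaca2, the chemokine gene CXCL2 (ENSG00000081041, chr4:74097035-74099293) had the largest difference of responses. Its level was 5.90, 4.97 and 4.58 CPM in KP4 DMSO and 2.85, 2.35 and 2.86 CPM in KP4 trametinib. In MiaPaca2 it was 6.52, 4.69 and 6.03 CPM with DMSO and 18.03, 20.6 and 20.3 CPM with trametinib. The DMSO groups of the lines overlapped, while the trametinib groups lay far apart, with MiaPaca2 3.42-fold above its control and KP4 1.91-fold below. The difference was -2.71 ± 0.21 (edgeR adjusted p = 1e-10). CD82 (ENSG00000085117, chr11:44564427-44620363), a tetraspanin known as a suppressor of metastasis, read 77.8, 80.03 and 85.8 CPM in KP4 DMSO and 44.8, 42.4 and 40.6 CPM with trametinib. In MiaPaca2 it read 14.5, 21.7 and 17.5 CPM, then 38.0, 37.0 and 39.0 CPM. CD82 thus started lower in MiaPaca2 and ended near the KP4 trametinib level, a difference of -2.02 ± 0.13 (edgeR adjusted p = 6.07e-11).

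The remaining 10 of this set spanned transcription factors, enzymes and signalling regulators. CEBPB, a transcription factor of stress and differentiation, read 39.6, 43.1 and 41.5 CPM in KP4 DMSO and 29.5, 24.0 and 24.0 CPM with trametinib, against 18.6, 23.3 and 32.4 CPM and then 50.6, 55.2 and 48.1 CPM in MiaPaca2. The lines thus stood in reverse order under trametinib. MYB, another transcription factor, changed by -0.88 in KP4 and 0.68 in MiaPaca2. SESN2, a sestrin induced by stress, changed by -0.80 and 0.87, SPHK1, which makes sphingosine 1-phosphate, by -1.05 and 0.75, and SMAD7, the inhibitory SMAD of TGF-beta signalling, by -1.16 and 0.75. CRABP2, which carries retinoic acid to its receptor, changed by -0.60 and 0.91. RNF19B (a ubiquitin ligase), STEAP1 (a member of the STEAP metalloreductase family), GALNT14 (a glycosyltransferase) and VWA1 (a matrix protein) changed by -0.59 to -0.89 in KP4 and by 0.57 to 0.73 in MiaPaca2. All 24 of these strongest opposite movers kept the call in each of 21 refits with other scalings, filters, tools, blocks or 1 library left out.

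**Figure D3:**
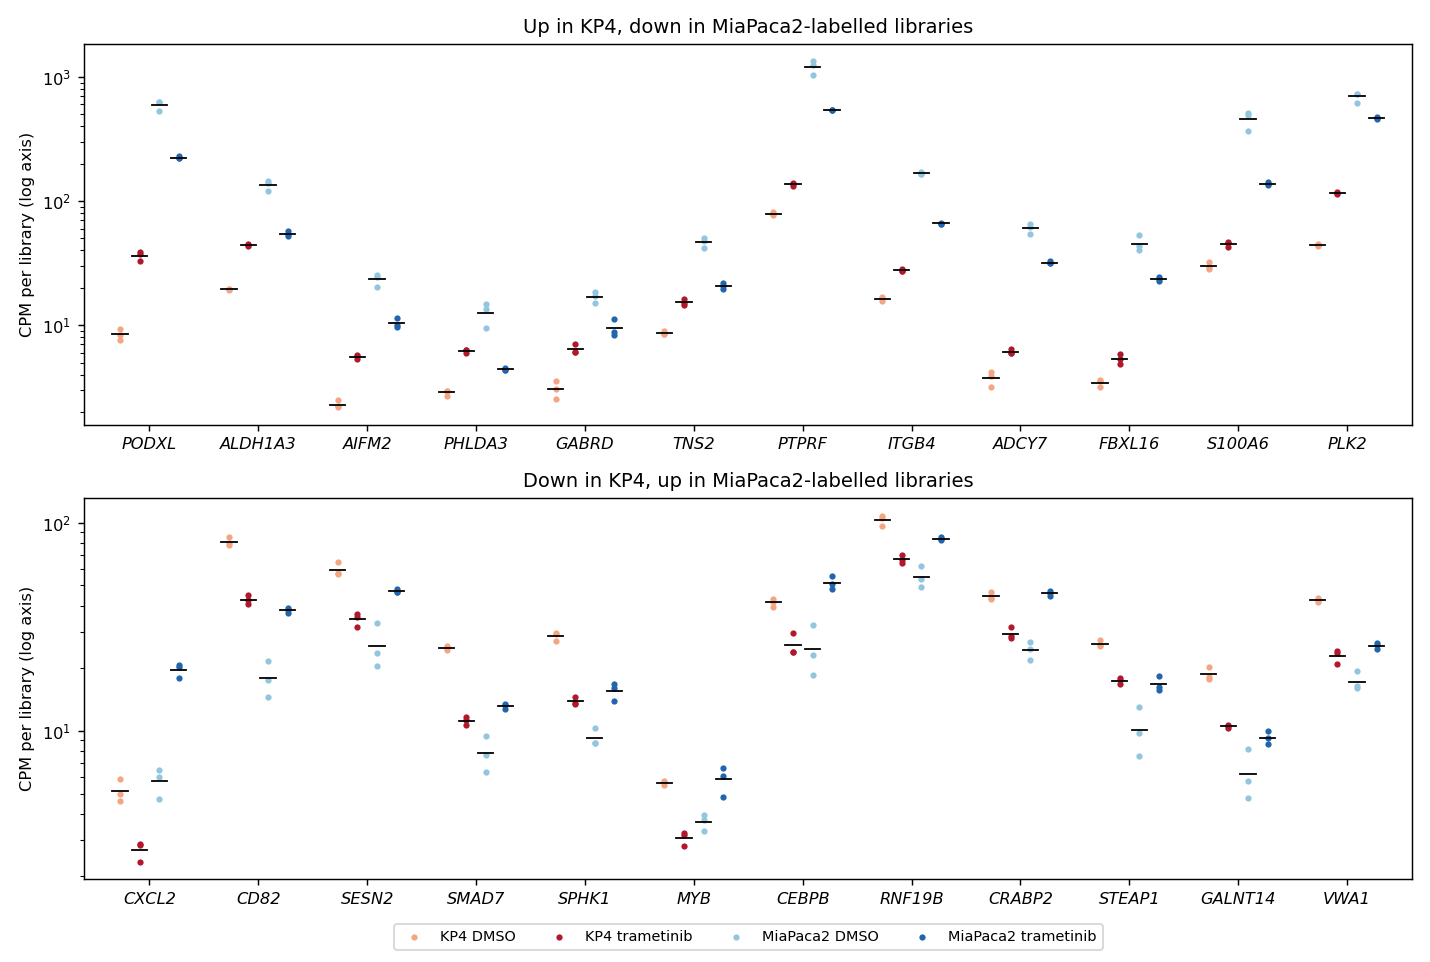
Points are CPM in each library on a log axis and bars are group means over 3 libraries, for the 12 genes in each direction whose smaller move was largest. In the upper panel KP4 rises and MiaPaca2 falls towards KP4, past it for PHLDA3, and in the lower panel KP4 falls while MiaPaca2 rises, past the KP4 trametinib mean in all but CD82, STEAP1 and GALNT14.

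ERK feedback genes, which check that MEK was inhibited in both lines, fell steeply in each. SPRY4, a Sprouty inhibitor of the MAPK pathway, went from 203 to 209 CPM to 2.00 to 2.26 CPM in KP4 and from 214 to 241 CPM to 3.10 to 4.06 CPM in MiaPaca2. Of 32 well-expressed genes of the ERK feedback and ETS target list, 30 fell in KP4 and 25 in MiaPaca2. The responses nevertheless differed for 21 of the 32, 3 higher and 18 lower in KP4, with a median difference of -0.56. Over all well-expressed genes, the background for this and each later list, 22.1% responded higher in KP4 and 24.4% lower. The ETS factor ETV4 differed by -0.12 ± 0.32 and the phosphatase DUSP6 by -0.86 ± 0.95, and neither passed the test (adjusted p = 0.822 and 0.532). Another phosphatase, DUSP5, fell by 2.30 in KP4 against 0.45 in MiaPaca2, and cyclin D1, CCND1, fell by 1.63 against 0.58.

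Of the growth factor and cytokine genes of the same list, LIF and AREG moved in opposite directions, while EREG, the EGF receptor ligand epiregulin, fell in both lines (-0.97 and -0.23). LIF (ENSG00000128342, chr22:30240447-30246851), an IL6-family cytokine, read 157, 163 and 151 CPM in KP4 DMSO and 35.3, 38.6 and 34.5 CPM with trametinib. In MiaPaca2 it read 49.99, 67.9 and 48.1 CPM with DMSO and 72.6, 75.9 and 70.6 CPM with trametinib. LIF fell 4.34-fold in KP4 and rose 1.32-fold in MiaPaca2, with no overlap of groups in either line, and the difference was -2.52 ± 0.14 (edgeR adjusted p = 1.73e-08). AREG, the EGF receptor ligand amphiregulin, changed by -1.23 and 0.55, and FGF5, a fibroblast growth factor from the list of receptor tyrosine kinases and ligands, by -0.81 and 0.47. IER3, an early response gene, read 269.5 to 274 CPM in KP4 DMSO and 143 to 146 CPM in KP4 trametinib, against 108 to 125 CPM and 148 to 152 CPM in MiaPaca2. SPHK1, given above, and the transcription factor ETS2 (-0.65 and 0.25) were the other opposite movers of the list, which held 5 that fell in KP4 and 0 that rose.

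The AP-1 and immediate early genes were divided in direction between the lines. Of 27 well-expressed members 21 responded lower in KP4 and 2 higher, against 24.4% and 22.1% of all well-expressed genes. The median response was -0.34 in KP4 and 0.40 in MiaPaca2, with a median difference of -0.82. In KP4 17 fell and 5 rose, whereas in MiaPaca2 8 fell and 17 rose. Opposite moves were found in 10 of the 27, against 3.6% of all well-expressed genes. The 9 that fell in KP4 were FOSL2, IER3, KLF6, KLF10, NR4A1, ZFP36L1, DUSP1, MCL1 and CSRNP1, and KLF2 rose. NR4A1, an orphan nuclear receptor, read 11.2, 15.4 and 14.7 CPM in KP4 DMSO and 9.63, 11.3 and 9.09 CPM with trametinib, where 1 library overlapped the controls. In MiaPaca2 it read 1.86, 3.11 and 2.84 CPM and then 5.97, 5.88 and 5.38 CPM. CSRNP1, an early response nuclear protein, changed by -0.54 and 1.02. KLF2, a Krüppel-like factor, read 4.67, 5.59 and 7.12 CPM in KP4 DMSO and 32.5, 30.5 and 31.9 CPM with trametinib, against 50.1, 47.0 and 75.3 CPM and then 42.5, 40.7 and 37.5 CPM in MiaPaca2. It rose 5.43-fold in KP4, and its fall of 1.43-fold in MiaPaca2 rested on DMSO libraries that were wide apart (adjusted p = 0.0189).

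FOS itself also moved in opposite directions but did not reach 5 CPM in MiaPaca2. It read 5.54, 6.57 and 6.73 CPM in KP4 DMSO and 0.562, 0.635 and 0.668 CPM with trametinib, against 2.60, 2.64 and 3.32 CPM and then 4.71, 3.60 and 4.69 CPM in MiaPaca2. The difference was -3.94 ± 0.28 (edgeR adjusted p = 4.08e-11). JUNB rose in both lines, by 0.12 in KP4 and 1.53 in MiaPaca2, and BTG2, an antiproliferative early gene, by 0.82 and 3.28. FOSL1 fell by 1.36 and 1.41, and its difference of 0.05 ± 0.09 did not pass the test (adjusted p = 0.671). EGR1, a zinc finger factor, fell by 4.69 and 4.29, and its difference of -0.40 ± 0.45 did not pass either (adjusted p = 0.546).

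The cAMP response element, a site bound by CREB and ATF factors, is spelled TGACGTCA. It was looked for on both strands from 250 bases before to 50 after each gene's start in RefSeq promoters of GRCh38.p14, which matched 8642 of the 10581 well-expressed genes. It occurred in 11 of 182 matched promoters of genes that fell in KP4 and rose in MiaPaca2 (6.04%), in 3 of 129 of the reverse kind (2.33%), in 3.44% of well-expressed genes and in 1.92% of all 27305 promoters. Among the immediate early genes it stood before ZFP36L1, which encodes an RNA-binding protein that destabilises AU-rich transcripts, and before DUSP1, a phosphatase of stress-activated MAP kinases; both were chosen after their values had been seen. It also stood 200 bases before the start of JUND, an AP-1 subunit that passed the test in MiaPaca2 alone. The opposite movers FOSL2, KLF2, KLF6, NR4A1 and CSRNP1 did not have the element in this window. IER3, KLF10 and MCL1, the other opposite movers of that list, were not among the promoters searched. The 200 bases before each start are shown 5′ to 3′ with the element in capitals, at chr14:68793417-68793616 and chr5:172771196-172771395, both on the minus strand, so that its place before the start can be seen beside their opposite moves.
ZFP36L1: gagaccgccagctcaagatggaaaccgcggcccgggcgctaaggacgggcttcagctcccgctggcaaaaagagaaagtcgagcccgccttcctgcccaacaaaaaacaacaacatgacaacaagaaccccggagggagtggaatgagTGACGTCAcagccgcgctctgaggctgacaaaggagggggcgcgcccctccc
DUSP1: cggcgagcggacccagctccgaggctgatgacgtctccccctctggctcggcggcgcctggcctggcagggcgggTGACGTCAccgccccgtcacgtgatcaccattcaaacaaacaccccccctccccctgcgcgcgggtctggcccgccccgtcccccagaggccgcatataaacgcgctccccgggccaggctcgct
The element begins 52 bases before the ZFP36L1 start and 125 before that of DUSP1. ZFP36L1 went from a mean of 252 to 233 CPM in KP4 and from 306 to 438 CPM in MiaPaca2, changes of -0.11 and 0.51. Its opposite call was lost with the KP4 profile subtracted at both ratios, as given above. DUSP1 went from a mean of 63.0 to 44.3 CPM in KP4 and from 33.7 to 46.8 CPM in MiaPaca2, changes of -0.51 and 0.47. A match is a run of letters and no evidence of binding.

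Other motifs were counted in the same windows. The NF-kB motif was found in 15.9% of promoters of genes that fell in KP4, 20.9% of those that rose, 12.7% of well-expressed genes and 10.8% of all promoters. The interferon-stimulated response element was found in 1 of 182 promoters (0.549%), 0 of 129 and 2.80% of well-expressed genes. The AP-1 site, TGACTCA, was in 4.95%, 3.10% and 3.10%, and the E-box, CACGTG, in 8.24%, 13.2% and 9.99%. The bases G and C made up a median of 66%, 69% and 66% of these windows, against 58% in all promoters.

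Chemokine and NF-kB target genes were less induced or more reduced in KP4. Of 20 well-expressed members 14 responded lower in KP4 and 0 higher, against 24.4% and 22.1% of all well-expressed genes. Median responses were 0.40 in KP4 and 1.07 in MiaPaca2, with a median difference of -0.85. Besides CXCL2 and LIF, CXCL1, a related neutrophil chemokine, moved in opposite directions, from 13.5 to 15.6 CPM down to 5.46 to 7.38 CPM in KP4 and from 32.7 to 46.8 CPM up to 55.0 to 60.2 CPM in MiaPaca2. CXCL8, the interleukin 8 gene, fell by 3.67 in KP4 and by 0.63 in MiaPaca2. The lowest CXCL1 value among the MiaPaca2 DMSO libraries was that of replicate 2, which stood apart from its group. Of the chemokines, CCL5 rose in both lines, by 4.63 and 5.98.

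Stress response genes split between the lines. Of 25 well-expressed genes for chaperones of the endoplasmic reticulum (ER) and the unfolded protein response 16 responded lower in KP4 and 1 higher, against 24.4% and 22.1% of all well-expressed genes. The median difference was -0.24. Heat shock and cytosolic chaperones went the other way, with 17 of 23 higher in KP4 and 3 lower. HSPA5, the main chaperone of the endoplasmic reticulum, read 603, 655 and 597 CPM in KP4 DMSO and 499.5, 495 and 503 CPM with trametinib, against 614, 628 and 614 CPM and then 709, 718 and 706 CPM in MiaPaca2. The groups were separate in both lines and the moves were small, -0.31 and 0.20. HERPUD1, a component of ER-associated degradation, changed by -0.59 and 0.37, the transcription factor XBP1 by -0.38 and 0.17, and the disulfide isomerase PDIA4 by -0.13 and 0.10. XBP1 and PDIA4 kept the opposite call in 15 of 21 refits.

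In the integrated stress response, the pathway that slows translation through eIF2, 12 of 27 well-expressed members responded lower in KP4 and 6 higher. The shares over all well-expressed genes were 24.4% and 22.1%, so the higher count was near its background. PPP1R15A, the GADD34 subunit that reverses eIF2 phosphorylation, read 48.5, 52.3 and 53.2 CPM in KP4 DMSO and 41.1, 38.9 and 42.6 CPM with trametinib, against 32.7, 34.8 and 30.8 CPM and then 56.2, 61.4 and 55.2 CPM in MiaPaca2. SESN2 and CEBPB, given above, were the other opposite movers, all 3 falling in KP4. WARS1, the tryptophanyl-tRNA synthetase, which is also an interferon-induced gene, read 148, 145 and 143 CPM in KP4 DMSO and 118, 124 and 129.9 CPM with trametinib. In MiaPaca2 it went from 467 to 488 CPM up to 1712 to 1771 CPM, a 3.62-fold rise. It stood against the rest of its list, since of 25 aminoacyl-tRNA synthetases 21 fell in MiaPaca2 and 1 rose. QARS1, for glutamine, was the reverse case at 0.14 and -0.50, but it kept the opposite call in only 10 of 21 refits.

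Of 17 well-expressed BCL2 family genes, which set the threshold for apoptosis, 8 responded lower in KP4 and 4 higher, against 24.4% and 22.1% of all well-expressed genes. MCL1, a survival protein of the BCL2 family, read 253, 263 and 251 CPM in KP4 DMSO and 183, 186 and 189 CPM with trametinib, against 235, 247 and 241 CPM and then 309, 319.9 and 322 CPM in MiaPaca2. PMAIP1, the pro-apoptotic protein NOXA that binds MCL1, also fell in KP4 and rose in MiaPaca2 (-0.95 and 0.28), and BID, another pro-apoptotic member, did the reverse (0.34 and -0.32). CDKN1A, the CDK inhibitor p21, went from 104 to 112 CPM down to 73.3 to 76.2 CPM in KP4 and from 18.5, 30.3 and 19.4 CPM up to 41.6 to 48.0 CPM in MiaPaca2. Its MiaPaca2 DMSO libraries were uneven, with replicate 2 the highest. With the KP4 profile subtracted at either ratio CDKN1A was no longer called opposite. Its MiaPaca2 rise was then 1.70 and 5.60 on the log2 scale and its difference -2.21 and -6.11, and both still passed the test. At the tenth lowest ratio the amount subtracted was near or above the CDKN1A level of the MiaPaca2 DMSO libraries. Counts were set to at least 0, so the sizes at that ratio are largely set by the subtraction. It was the KP4 response that no longer passed, although the KP4 counts were unaltered.

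Several lipid synthesis genes rose in KP4 and fell in MiaPaca2. Of 19 well-expressed fatty acid synthesis and desaturation genes 11 responded higher in KP4 and 2 lower, against 22.1% and 24.4% of all well-expressed genes, with median responses of 0.16 and -0.19. Without replicate 2 of MiaPaca2 DMSO 11 were higher and 5 lower. The 6 opposite movers, ACLY, ACACA, FASN, SCD, ELOVL1 and SREBF1, all rose in KP4. SCD, the stearoyl-CoA desaturase, read 769, 815 and 740.1 CPM in KP4 DMSO and 1022, 1084 and 1093 CPM with trametinib, against 788, 1113 and 780.2 CPM and then 560.3, 579 and 619 CPM in MiaPaca2. The highest control was replicate 2 of MiaPaca2 DMSO, and without it SCD fell by 0.42 in place of 0.61 in MiaPaca2. FASN, the fatty acid synthase, read 1153, 1241 and 1196 CPM, then 1318, 1362 and 1334 CPM in KP4, and 1315, 1639 and 1559 CPM, then 829, 816 and 833 CPM in MiaPaca2. The KP4 rise of FASN was small (0.16 ± 0.06) and kept the opposite call in 15 of 21 refits.

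Other opposite movers of the list are enzymes before and after FASN and their regulator. ACACA, the acetyl-CoA carboxylase, changed by 0.44 in KP4 and -0.19 in MiaPaca2, ACLY, which supplies cytosolic acetyl-CoA, by 0.11 and -0.46, and ELOVL1, which elongates finished fatty acids, by 0.16 and -0.29. SREBF1, the transcription factor that drives these enzymes, read 225, 246 and 239.6 CPM in KP4 DMSO and 289, 305 and 315 CPM with trametinib, against 321, 365 and 375 CPM and then 284, 289 and 298 CPM in MiaPaca2. Of 24 well-expressed cholesterol synthesis genes 5 responded higher and 3 lower, no more than the shares of 22.1% and 24.4% over all well-expressed genes; without replicate 2 of MiaPaca2 DMSO it was 6 higher and 8 lower. With the KP4 profile subtracted at the lowest and the tenth lowest ratio, 10 and 14 of the 24 responded higher in KP4, and the MiaPaca2 response was -1.27 and -1.78 for FASN, and -1.11 and -1.90 for SCD. FASN was nevertheless no longer called opposite with either ratio, and SCD and ACLY not with the tenth lowest. For FASN, SCD, ACACA and SREBF1 the MiaPaca2 trametinib mean lay below that of KP4 trametinib.

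Of 26 well-expressed NRF2 and ferroptosis defence genes 11 responded higher in KP4 and 5 lower, against 22.1% and 24.4% of all well-expressed genes, with a median difference of 0.13. Without replicate 2 of MiaPaca2 DMSO 12 were higher and 9 lower. The 3 opposite movers rose in KP4. GCLM, the modifier subunit of the enzyme that starts glutathione synthesis, read 69.3, 65.3 and 68.4 CPM in KP4 DMSO and 84.8, 90.1 and 83.5 CPM with trametinib. In MiaPaca2 it read 157, 114 and 132 CPM and then 62.0, 64.3 and 59.1 CPM, so that the order of the lines was reversed. AIFM2, known as FSP1, which protects membranes from ferroptosis, read 2.50, 2.18 and 2.22 CPM, then 5.73, 5.34 and 5.64 CPM in KP4, and 24.2, 20.2 and 25.6 CPM, then 9.95, 11.5 and 9.67 CPM in MiaPaca2. PRDX1, a peroxiredoxin, changed by 0.29 and -0.33. HMOX1, the heme oxygenase, rose in both lines and further in MiaPaca2 (0.89 and 2.23).

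Of 27 well-expressed iron-handling genes 7 responded higher in KP4 and 10 lower, against 22.1% and 24.4% of all well-expressed genes, with a median difference of -0.18. SLC39A8, a metal importer, read 32.8, 29.8 and 30.9 CPM in KP4 DMSO and 28.04, 24.1 and 24.9 CPM with trametinib, against 24.5, 24.2 and 24.7 CPM and then 58.0, 56.5 and 55.4 CPM in MiaPaca2. SLC25A28, a mitochondrial iron importer, changed by -0.19 and 1.40, and its fall in KP4 was marginal, with the opposite call kept in 7 of 21 refits. STEAP1, given above, was the third opposite mover. FTH1, the ferritin heavy chain, rose in both lines, by 0.57 in KP4 and 1.02 in MiaPaca2, and TFRC, the transferrin receptor, fell in both, by 0.47 and 0.64. FTH1 has many pseudogene copies and its counts are therefore less certain.

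Most lysosomal genes rose in both lines, and autophagy genes rose more often than they fell in each, with more rising in MiaPaca2. Of 53 well-expressed lysosomal genes 38 rose in KP4 and 41 in MiaPaca2, against 27.4% and 36.1% of all well-expressed genes. The response was lower in KP4 for 28 and higher for 8, against 24.4% and 22.1%, and the median difference was -0.26. Of 49 autophagy genes 21 rose and 5 fell in KP4, and 34 rose and 7 fell in MiaPaca2, with medians of 0.12 and 0.42. Of these 49, 23 responded lower in KP4 and 4 higher. SQSTM1, the receptor p62, rose by 0.58 and 1.44, and NCOA4, the ferritin receptor of autophagy, by 0.15 and 0.42. CTSD, the protease cathepsin D, read 98.7, 94.7 and 102 CPM in KP4 DMSO and 149.8, 147 and 148 CPM with trametinib, against 153, 159 and 178 CPM and then 148, 153 and 149 CPM in MiaPaca2. Its fall in MiaPaca2 was only -0.13 ± 0.05 with groups that nearly met. DPP7, a lysosomal peptidase, changed by 0.79 and -0.52, and CTSC, which activates serine proteases, by -0.22 and 0.48, with CD63, a tetraspanin of lysosomes and exosomes, at -0.20 and 0.30. ATG7, which activates the ubiquitin-like proteins of autophagy, was the sole opposite mover of its list at -0.37 and 0.20. TFEB, the transcription factor of lysosome genes, rose by 0.84 and 0.94, with a difference of -0.10 ± 0.13 (adjusted p = 0.597).

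**Figure D4:**
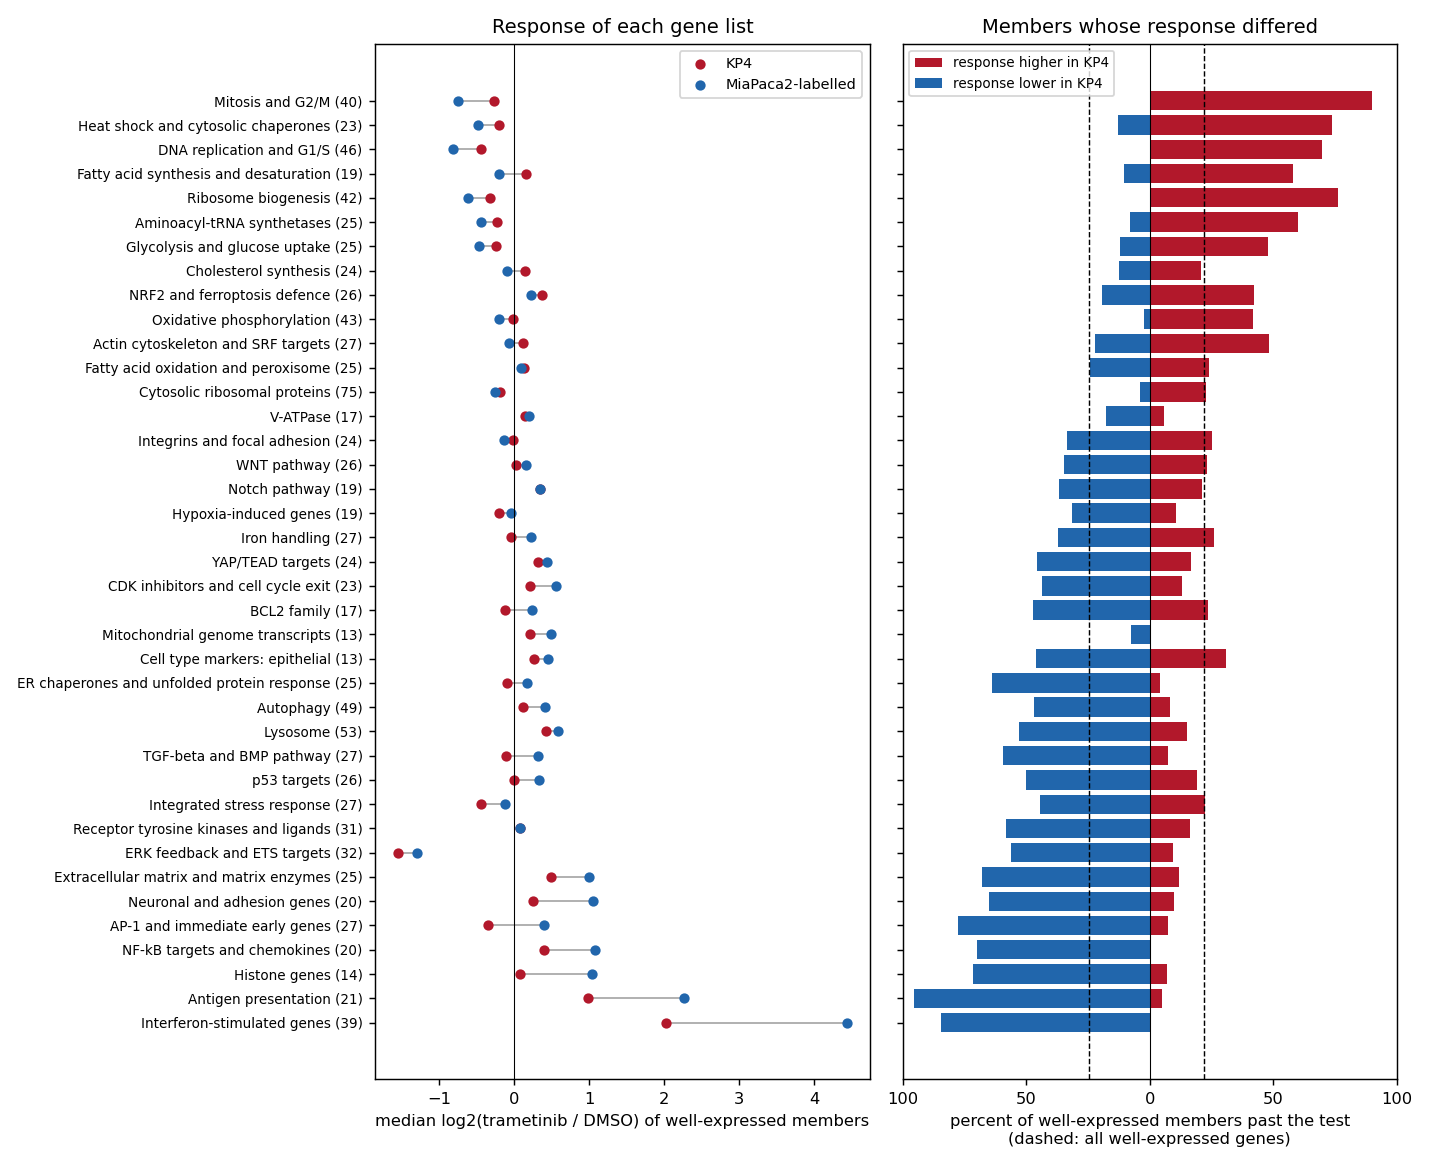
The left panel gives the median log2 response of the well-expressed members of each gene list in KP4 and in MiaPaca2, with the number of members in brackets, and the right panel gives the percentage of members whose response was higher or lower in KP4, with dashed lines at 22.1% and 24.4%, the shares over all well-expressed genes. Mitosis genes lie at 1 end, with 36 of 40 higher in KP4, and interferon-stimulated genes at the other, with 33 of 39 lower.

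Proliferation genes fell in both lines and fell further in MiaPaca2. Of 46 well-expressed DNA replication and G1/S genes 43 fell in KP4 and 45 in MiaPaca2, with medians of -0.44 and -0.82, and the response was higher in KP4 for 32 and lower for 0. Of 40 mitosis genes 34 and 38 fell, with medians of -0.26 and -0.75, and 36 were higher in KP4 and 0 lower. PLK1, a mitotic kinase, fell by 0.36 in KP4 and 1.35 in MiaPaca2, CDC20, an activator of the anaphase-promoting complex, by 0.32 and 1.32, and PCNA, the replication clamp, by 0.44 and 1.12. KIF20A, a kinesin of cytokinesis, was the only opposite mover, from 212 to 225 CPM up to 246 to 252 CPM in KP4 and from 231 to 241 CPM down to 196 to 206 CPM in MiaPaca2. Of 42 ribosome biogenesis genes 38 fell in KP4 and 42 in MiaPaca2, and 32 were higher in KP4 and 0 lower, with the nucleolar proteins NPM1 (-0.17 and -0.72) and FBL (-0.52 and -1.11) as examples. Cytosolic chaperones gave 17 of 23 higher and 3 lower, with BAG3, a co-chaperone, opposite at -0.33 and 0.15. Oxidative phosphorylation gave 18 of 43 higher and 1 lower, with the subunit UQCRC2 (0.20 and -0.40) opposite. The shares over all well-expressed genes were 22.1% higher and 24.4% lower. For mitosis the count higher in KP4 was 39 and 40 of 40 after the subtractions, and for replication 36 and 38 of 46.

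Interferon-stimulated genes rose in both lines and had the largest median difference of the 44 lists. All 39 well-expressed members rose in each line, with medians of 2.02 in KP4 and 4.44 in MiaPaca2; 33 responded lower in KP4 and 0 higher, and 0 moved in opposite directions. IFIT1, an antiviral RNA-binding protein, read 4.32, 3.11 and 3.19 CPM in KP4 DMSO and 168, 148 and 174 CPM with trametinib, against 23.6, 15.2 and 22.4 CPM and then 1022, 1012 and 1059 CPM in MiaPaca2. The groups were far apart in both lines, and the difference of responses did not pass the test (-0.13 ± 0.25). The sensor RIGI rose by 1.47 and 4.29 and ISG15, a ubiquitin-like modifier, by 3.03 and 5.4. Of 21 well-expressed antigen presentation genes 20 responded lower in KP4 and 1 higher, with a median difference of -1.31. HLA-B, an MHC class I heavy chain whose reads may be shared with its close relatives, rose by 2.29 and 4.31, and NLRC5, the activator of MHC class I genes, by 1.42 and 4.22. The exception was CD74, the MHC class II invariant chain, at 2.79 in KP4 and 2.09 in MiaPaca2, but its difference did not pass without replicate 2 of MiaPaca2 DMSO (adjusted p = 0.156) or with the KP4 profile subtracted by the tenth lowest ratio (0.0793).

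Adhesion and cytoskeletal genes held several opposite movers that rose in KP4, while epithelial markers were mixed. Of 13 well-expressed epithelial markers 4 responded higher in KP4 and 6 lower, with 2 opposite movers that rose in KP4 and 1 that fell. Over all well-expressed genes 22.1% responded higher and 24.4% lower, and 1.54% and 2.06% were opposite movers that rose and fell in KP4. Of 24 well-expressed integrin and focal adhesion genes 6 responded higher in KP4 and 8 lower, with a median difference of -0.07, so the list as a whole did not lean to KP4. The 4 opposite movers all rose in KP4, namely ITGB4 and TNS2, given above, with VCL (0.38 and -0.28), which anchors actin at adhesions, and PARVB (0.18 and -0.59), a parvin. VCL read 512, 524 and 529 CPM in KP4 DMSO, 685, 668 and 683 CPM in KP4 trametinib, 817, 769 and 788 CPM in MiaPaca2 DMSO and 638, 654 and 665 CPM in MiaPaca2 trametinib. KRT8, a keratin of simple epithelia with many pseudogene copies, read 50.9, 55.0 and 49.9 CPM, then 63.1, 67.7 and 61.3 CPM in KP4, and 852, 765 and 1000 CPM, then 362, 359.9 and 370.4 CPM in MiaPaca2. The keratin KRT80 changed by 0.27 and -0.69, and the actin gene ACTG1, which shares near-identical stretches with other actins, by 0.12 and -0.16. The tight junction gene CLDN1 went the other way, from 132 to 144 CPM down to 104 to 106 CPM in KP4 and from 58.2, 61.0 and 74.8 CPM up to 145 to 153 CPM in MiaPaca2. The keratin KRT18, scaled over all genes with a count, fell in both lines, from 184 to 127 CPM in KP4 and from 760 to 216 CPM in MiaPaca2. Summed epithelial markers also fell in both lines, but the sum is weighted to abundant members such as KRT18. Counted by member, more rose than fell. Of the 13 well-expressed markers 8 rose and 3 fell in KP4, with a median response of 0.27. In MiaPaca2 9 rose and 4 fell, with a median of 0.45. Over all well-expressed genes 27.4% rose and 32% fell in KP4, and 36.1% and 38.1% in MiaPaca2. A part of a change in the mix of cells in these results was not tested.

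Receptors and morphogen pathways were mixed. Of 31 well-expressed receptor tyrosine kinases and ligands 18 responded lower in KP4 and 5 higher, against 24.4% and 22.1% of all well-expressed genes. ROR1, a receptor for WNT5A, read 3.52, 4.08 and 4.55 CPM in KP4 DMSO and 13.3, 12.1 and 15.2 CPM with trametinib, against 17.1, 13.1 and 16.3 CPM and then 10.2, 12.5 and 10.2 CPM in MiaPaca2. Its paralogue ROR2 moved the other way in each line, by -0.39 and 0.59. TYRO3, a TAM receptor, changed by 0.20 and -0.93 but kept the opposite call in 13 of 21 refits, and EPHB4, an ephrin receptor, by 0.25 and -0.23. Of 27 TGF-beta and BMP genes 16 responded lower in KP4 and 2 higher (17 and 5 without replicate 2 of MiaPaca2 DMSO), with SMAD7 and the SMAD co-repressor SKIL (-0.53 and 0.23) falling in KP4 and rising in MiaPaca2. DKK1 (-0.24 and 0.58), a secreted WNT inhibitor, and HES1 (-0.74 and 0.31), a Notch target, moved like SKIL, and ZNRF3 (0.26 and -0.21), which removes WNT receptors, moved the other way.

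Matrix and neuronal adhesion genes mostly responded lower in KP4, 17 of 25 and 13 of 20 well-expressed members against 3 and 2 higher. The shares over all well-expressed genes were 24.4% lower and 22.1% higher. TNC, the matrix protein tenascin C, read 47.6, 44.4 and 52.8 CPM in KP4 DMSO and 31.5, 28.2 and 32.3 CPM with trametinib, against 8.78, 10.99 and 10.8 CPM and then 12.6, 13.5 and 13.3 CPM in MiaPaca2. PCDH7, a protocadherin, changed by -0.65 and 0.25, NRP1, a semaphorin and VEGF co-receptor, by -0.34 and 0.36, SEMA7A, a semaphorin, by -0.52 and 0.47, and CHGB, a granin of secretory granules, by -0.33 and 0.66. With the KP4 profile subtracted, PCDH7 and NRP1 were no longer called opposite with the lowest ratio, nor TNC, SEMA7A, CHGB and H2BC12 with the tenth lowest, where the differences of TNC and PCDH7 themselves no longer passed the test (adjusted p = 0.101 and 0.0840). The histone gene H2BC12 (-0.33 and 0.69), which has near-identical copies, moved the same way. TUBB6, a tubulin, read 206 to 217 CPM in KP4 DMSO, 233 to 239.7 in KP4 trametinib, 298 to 349.6 in MiaPaca2 DMSO and 260.4 to 273.5 in MiaPaca2 trametinib, and the lactate transporter gene SLC16A1 also rose in KP4 and fell in MiaPaca2. RPLP1, a ribosomal stalk protein with pseudogene copies, went from 1347 to 1467 CPM down to 1219 to 1265 CPM in KP4 and from 858 to 1044 CPM up to 1122 to 1293 CPM in MiaPaca2, but kept the opposite call in 13 of 21 refits.

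Outside the opposite movers, the largest differences had the lines moving together or 1 line moving alone. MMP1, a collagenase, had the lowest difference, -5.85 ± 0.81. It read 11.01, 12.9 and 10.7 CPM in KP4 DMSO and 0.0351, 0.0747 and 0 CPM with trametinib, a total of 3 counts against 908, which is a 312-fold fall with an exact 95% counting interval of 106 to 1517. In MiaPaca2 it fell from 16.5, 8.35 and 17.3 CPM to 2.32, 3.95 and 2.61 CPM. TRIM22, DDX60L and APOL1, which are induced by interferon, together with TRANK1 and the long non-coding RNA LINC02593, had differences of -3.17 to -3.78. At the other end CALB2, the calcium-binding protein calretinin, read 20.4, 21.2 and 19.0 CPM, then 13.98, 15.7 and 16.2 CPM in KP4, and 143, 141 and 163 CPM, then 16.0, 14.02 and 15.0 CPM in MiaPaca2, so that the lines were level under trametinib. PHLDB2, a scaffold at the cell cortex, fell by 2.07 in MiaPaca2 with a change of 0.04 ± 0.09 in KP4, while RBM47, an RNA-binding protein, rose by 2.22 in KP4 with a change of -0.18 ± 0.12 in MiaPaca2. UPK3B, a uroplakin, rose in both, by 4.38 and 1.53.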

How the data were processed

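RNA from 12 samples was sequenced with an mRNA library kit, per the labels, and the authors deposited 1 table of raw read counts by gene, without normalization. STAR, DESeq2 and the build GRCh38 (hg38) are named per the submitters' processing notes; versions, the counting program, the annotation and the use of strand were not given in the sources used here, so genes with near-identical copies or overlapping antisense genes are uncertain. The table held 58735 genes, 31413 with a count, all with positions from GENCODE 29. Genes passing filterByExpr (16133) were scaled by TMM and fitted with edgeR 4.0.16 (R 4.3.3; quasi-likelihood, robust, 1 mean per group, 12 libraries, no covariate), with Benjamini-Hochberg adjustment over all genes tested and calls at an adjusted p under 0.05. The biological coefficient of variation was 5.47%. CPM are TMM-scaled. Log2 changes are given with SE, n = 3 per group. No pair of libraries agreed within sampling noise. A count of 0 over a group allows up to 0.0432 CPM (3 counts). Intervals and floors cover counting error only.

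On simulated counts for the difference of responses (15731 genes), edgeR recovered 85 of 100 genes changed 1.5-fold and 100 of 100 changed 2-fold, and called 14 unchanged genes. The simulation gave every gene and group the same dispersion, 0.003, and placed changes only in genes above a minimum level. The real MiaPaca2 DMSO libraries were wider apart (chi-square per degree of freedom 7.70 to 14.5, against 2.02 to 2.89 in the other groups). These rates may therefore not hold for the real data. Alternatives included limma-voom (limma 3.58.1), DESeq2 1.42.0, other scalings, filters and levels, replicate blocks and leaving out each library. Members, 44 gene lists (1458 of 1463 names found) and the KP4 subtraction were chosen with earlier results of these data known. Text names the 12 opposite movers in each direction with the largest smaller change, the 6 highest and 6 lowest other differences, up to 4 opposite movers of each list by size of difference, and set reference genes; further list members were named after their values were seen. Some genes taken by these rules are not reported here. Subtracted counts were rounded and set to at least 0.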

Additional observations from a re-analysis of the deposited data

Results flagged for a closer look

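For the genes below the test of the difference of responses itself passed, so the effect of trametinib differed between KP4 and MiaPaca2; each value is that difference (KP4 minus MiaPaca2) on the log2 scale. Among genes that rose in KP4 and fell in MiaPaca2 it was 3.52 for PODXL, 2.62 for PHLDA3, 2.50 for ALDH1A3, 2.45 for AIFM2, 2.32 for S100A6 and 2.10 for ITGB4. In the same set it was 1.98 for TNS2, 1.97 for PLK2, 1.93 for PTPRF, 1.91 for GABRD, 1.63 for ADCY7, 1.60 for FBXL16 and 0.72 for CTSD. Among genes that fell in KP4 and rose in MiaPaca2 it was -2.71 for CXCL2, -2.02 for CD82, -1.91 for SMAD7, -1.80 for SPHK1, -1.73 for CEBPB and -1.67 for SESN2. The remaining genes of that set had -1.56 (MYB), -1.50 (CRABP2), -1.46 (VWA1), -1.40 (GALNT14), -1.32 (STEAP1) and -1.24 (RNF19B), and FOS, under the level condition, had -3.94.

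Other genes differed in the size of a shared move or moved in 1 line. The lowest values were -5.85 for MMP1, -3.78 for TRIM22, -3.40 for TRANK1, -3.19 for DDX60L, -3.19 for APOL1 and -3.17 for LINC02593. The highest were 2.91 for CALB2, 2.85 for UPK3B, 2.40 for RBM47, 2.11 for PHLDB2, 2.09 for SAPCD2 and 1.79 for CNIH3. Reference genes gave -1.41 for JUNB, -1.05 for CCND1, -0.87 for SQSTM1, -0.57 for SPRY4 and -0.46 for FTH1, with 0.50 for MYC, 0.18 for MKI67 and 0.17 for TFRC.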

How the results depend on the processing

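The count of opposite movers, 381 as reported, was the most movable value. It was 575 without replicate 2 of MiaPaca2 DMSO (358 falling in KP4), 222 at an adjusted p under 0.01 (97 rising and 125 falling in KP4) and 21 with 1.5-fold moves in both lines (11 and 10). Leaving out each library in turn gave 305 to 575, with 134 to 358 falling in KP4; 134 came without replicate 1 of KP4 trametinib. Size factors of the RLE kind gave 384, with 212 rising and 172 falling in KP4, so the direction with more genes depended on the scaling. Signs of both responses were kept by all 381 genes in each of the refits with another scaling, filter, tool, block or library left out. The well-expressed genes that differed numbered 3719 to 5759 over the settings tried. No sign of pairing by replicate number was seen: deviations of same-numbered libraries had correlations of -0.0168 to 0.0196 within a line and -0.0134 to 0.0405 across lines. A pairing with a small shared effect cannot be seen in this way. A replicate block gave 371 opposite movers (nested in the line) or 394 (shared), and 5571 to 5765 differences over all genes.

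Of the 87 opposite movers taken by the naming rule, 66 kept the call in all 21 refits. Sign changes occurred only for genes without a call: ETV4 was 0.11 with limma-voom and 0.59 without replicate 1 of MiaPaca2 trametinib, IFIT1 0.04 and 0.049 without replicate 1 of KP4 DMSO or replicate 2 of MiaPaca2 DMSO, FOSL1 -0.027 without the latter, and TFEB 0.02 without replicate 1 of KP4 trametinib and 0.10 and 0.41 with the KP4 profile subtracted. Leaving out each library gave -0.53 to 0.59 for ETV4, -0.24 to 0.049 for IFIT1, -0.027 to 0.14 for FOSL1 and -0.18 to 0.02 for TFEB. SPRY4 (limma-voom) and TRIM22 (without replicate 1 or 3 of KP4 DMSO) lost their calls, and DUSP6 (-1.23) and EGR1 (-0.72) gained them without replicate 2 of MiaPaca2 DMSO. The causes were not tested. Genes with a few counts in a group, such as MMP1 and TRIM22, are limited by depth.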

Other observations

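Opposite movers were spread over the chromosomes. Chromosome 18 held 12 of its 156 well-expressed genes (7.69%), the highest share, chromosome 22 held 15 of 263 (5.70%) and chromosome 8 held 6 of 348 (1.72%), with 38 of 1076 (3.53%) on chromosome 1. None of the 17 well-expressed transcripts of the mitochondrial genome moved in opposite directions. The 13 protein-coding mitochondrial transcripts summed to 38248 to 40303 CPM in KP4 DMSO and 47982 to 50457 CPM in KP4 trametinib. In MiaPaca2 they summed to 19624 to 29737 CPM with DMSO and 32382 to 34972 CPM with trametinib, and 0 of the 13 responded higher and 1 lower in KP4. Without replicate 2 of MiaPaca2 DMSO, all 13 responded lower in KP4.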
